A study of Mus musculus with 12 samples.

Results

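Histone acetylation was described over 35 genes that encode the enzymes of glycolysis and of the pentose phosphate pathway, with the kinases that set phosphofructokinase activity, lactate dehydrogenases and lactate transporters, a pyruvate dehydrogenase kinase and galactose mutarotase. The genes were chosen by symbol, by a rule that uses no measured value though earlier results of these data were known, and all 35 were found among the 21900 protein-coding genes of the annotation. Within 5 kb of their spans lay 112 of the 40909 regions that the authors tested. Of these, 45 regions lay within 2 kb of an end of a member's span and are called gene-end regions here; they belong to 33 members. The annotated starts of Hk1 and Pfkfb2 lie inside their spans, and neither gene has a gene-end region. Coordinates are those of the authors' files, build GRCm38 (mm10); exons and introns were not used here.

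H3K9/14ac, acetylation of histone H3 at lysines 9 and 14, was profiled by RELACS, a ChIP-seq protocol that barcodes the chromatin of each sample inside its nuclei before pooling. The cells were T helper 17 (Th17) cells on the C57BL/6 background, obtained from naive T cells after 3 days of polarizing culture and then stimulated for 3 h with PMA and ionomycin while Bref A and Monensin were present. There were 3 libraries from wild type cells (WT) and 3 from Slc2a3-fl/fl Cd4-cre cells (KO), in which Cre driven by Cd4 sequences removes Slc2a3, the gene of the glucose transporter GLUT3, in T cells. The labels do not say whether the replicates came from separate mice or cultures, so their spread may be technical; 6 input libraries are not analysed here.

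Glycolysis splits glucose into pyruvate in the cytosol and yields ATP, and lactate dehydrogenase turns pyruvate into lactate, which monocarboxylate transporters export. The pentose phosphate pathway branches off at glucose 6-phosphate and supplies NADPH and ribose for nucleotides. Activated T cells and Th17 cells are known for high rates of glucose use, and acetylation of H3 at lysines 9 and 14 is a mark of active promoters and enhancers. The marked domain in a pool of cells cannot tell fewer cells carrying the mark from less mark per cell.

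Mean coverage recovered from the peak lists was 2.97 to 3.99 fragments in the WT libraries and 1.85 to 2.29 in the KO libraries, so every KO library was shallower, and the number of peaks was 40997 to 43507 against 39264 to 40582. Over Slc2a3 and 5 kb to each side, WT libraries had 12443 to 12507 bp under peaks and KO libraries 3822 to 6128 bp. Peaks were found in all 6 libraries at 6 of 7 genes listed for T and Th17 cells, and their summed length was 79935 to 90766 bp in WT and 55375 to 66023 bp in KO. Among them Il17a had 12098 to 13592 bp in WT and 2634 to 4567 bp in KO, and Il17f 3013 to 6458 bp and 0 to 436 bp. Cd8a, Ncr1, Klrb1c, Ms4a1 and Lyz2 had 0 bp under peaks in every library. Cd8b1 had 1681 to 2317 bp in WT and 476 to 995 bp in KO, and Cd79a 7402 to 8234 bp and 5840 to 7022 bp. The 4 genes listed for myeloid cells, of which Itgam, Csf1r and Cd14 had peaks in every library, summed to 5964 to 7865 bp and 6323 to 6982 bp, which overlapped. The part of these differences in the members' values was not tested. KO replicate 3 had 11 peaks on the Y chromosome against 1 to 2 in the other libraries and no peak at Xist against 1 in each of the others. It stands apart in this way for the X-linked members Pgk1, G6pdx and Pfkfb1, whose values are given by library. In the authors' deposited table a block of regions at Cd4 had a log2 fold change of 6.77, and it lies 65.5 kb from Tpi1, 110 kb from Eno2 and 273 kb from Gapdh; its part in the values of these genes was not tested.

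The 250 bases before the annotated start are shown for members at both extremes of the mean change described below, and for Ldha and Gapdh. They are from RefSeq, build GRCm38.p6, on the strand of the gene, 5′ to 3′, and 34 of the 35 members had an entry. At Tpi1 and Pgk1 the gene-end regions that rose lie at the other gene end, outside these windows. No start region of Tpi1, Pgk1 or Rpia rose. Capitals mark ACGTG, the core that hypoxia-inducible factor binds, GCGTG, its variant, and CACGTG, the E-box bound by MYC, on either strand. CACGTG holds ACGTG on both strands and is counted under both. The promoters of Pgd (chr4:149166706-149166955, minus strand) and Ldhb (chr6:142507958-142508207, minus strand) belong to the genes with the lowest means after Galm, which has no entry.
Pgd: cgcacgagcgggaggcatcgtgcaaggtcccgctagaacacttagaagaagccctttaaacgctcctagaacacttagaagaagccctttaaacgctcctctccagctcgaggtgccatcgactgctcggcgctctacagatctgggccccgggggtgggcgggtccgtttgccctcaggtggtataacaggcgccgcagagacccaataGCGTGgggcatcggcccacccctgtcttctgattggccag
Ldhb: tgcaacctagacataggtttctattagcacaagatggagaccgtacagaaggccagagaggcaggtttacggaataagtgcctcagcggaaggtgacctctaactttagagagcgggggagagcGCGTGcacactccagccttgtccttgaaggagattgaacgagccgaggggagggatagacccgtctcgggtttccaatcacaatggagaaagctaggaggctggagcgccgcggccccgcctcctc
Those of Tpi1 (chr6:124814159-124814408, minus strand), Pgk1 (chrX:106186850-106187099, plus strand) and Rpia (chr6:70792176-70792425, minus strand) belong to genes with the highest.
Tpi1: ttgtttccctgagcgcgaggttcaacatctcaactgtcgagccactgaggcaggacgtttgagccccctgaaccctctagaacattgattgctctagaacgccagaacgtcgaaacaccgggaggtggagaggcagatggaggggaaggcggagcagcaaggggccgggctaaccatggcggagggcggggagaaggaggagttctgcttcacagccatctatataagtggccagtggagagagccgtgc
Pgk1: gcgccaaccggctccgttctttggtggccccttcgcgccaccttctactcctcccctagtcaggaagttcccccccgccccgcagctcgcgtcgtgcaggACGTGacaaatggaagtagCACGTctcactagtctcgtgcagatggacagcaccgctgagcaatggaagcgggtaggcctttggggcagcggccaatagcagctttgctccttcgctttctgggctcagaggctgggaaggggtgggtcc
Rpia: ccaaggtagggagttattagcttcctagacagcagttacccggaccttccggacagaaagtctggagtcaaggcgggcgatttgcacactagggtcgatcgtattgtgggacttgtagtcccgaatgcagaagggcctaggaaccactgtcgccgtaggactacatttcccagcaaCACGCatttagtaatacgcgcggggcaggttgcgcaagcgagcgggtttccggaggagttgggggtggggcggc
Ldha (chr7:46845554-46845803, plus strand) and Gapdh (chr6:125165774-125166023, minus strand) make lactate from pyruvate and oxidise glyceraldehyde 3-phosphate.
Ldha: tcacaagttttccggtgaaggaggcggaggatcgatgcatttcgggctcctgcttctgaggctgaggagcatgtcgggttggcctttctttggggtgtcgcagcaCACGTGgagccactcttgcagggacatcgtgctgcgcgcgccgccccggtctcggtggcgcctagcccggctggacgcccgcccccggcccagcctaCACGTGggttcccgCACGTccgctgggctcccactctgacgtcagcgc
Gapdh: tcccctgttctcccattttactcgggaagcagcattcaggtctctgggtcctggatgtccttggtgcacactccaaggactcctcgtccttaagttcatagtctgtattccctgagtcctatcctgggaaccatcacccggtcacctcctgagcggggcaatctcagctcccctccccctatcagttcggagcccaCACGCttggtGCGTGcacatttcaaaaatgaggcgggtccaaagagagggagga
Both CACGTG matches of these windows lie in the promoter of Ldha, Pgk1 has 2 matches of ACGTG, and Tpi1 has none of the 3 motifs. Over the first listed start of each member, 10 of 34 windows held ACGTG (29.4%, against 17.6% of 17492 protein-coding genes), 18 held GCGTG (52.9% against 33.6%) and 4 held CACGTG (11.8% against 6.64%). A match describes letters in a window, and base composition was not matched between members and other genes.

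At gene ends the acetylation of these genes was mostly lower in KO cells. In the authors' deposited table, where a region is called at an FDR under 0.05, 34 of the 45 gene-end regions fell (75.6%; 55.3% of all gene-end regions fell), 3 rose (6.67%; 6.17% of all) and 8 were not called. The median of the members' means over gene-end regions was -1.15 on the log2 scale in the authors' deposited table, against -0.75 over all 11627 genes with such a region. Of the 33 members, 31 had a mean below 0, as had 88.6% of all genes. A mean of -1 or lower was reached by 20 members (27.4% of all genes), and no member reached 1 (2.08% of all genes). Each log2 fold change is that of the best window of a region, KO over WT, and so an extreme of the region. The authors' scaling differs from scaling by mean coverage: the latter would add 0.30 to every log2 fold change, which moves the members' median to -0.85 and that of all genes to -0.45, with 31 members still below 0. Of the gene-end regions, 12 also lie within 2 kb of an end of another gene (8 lower, 1 higher), so their change cannot be assigned to the member alone; among the 33 others 26 fell and 2 rose.

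**Figure D1:**
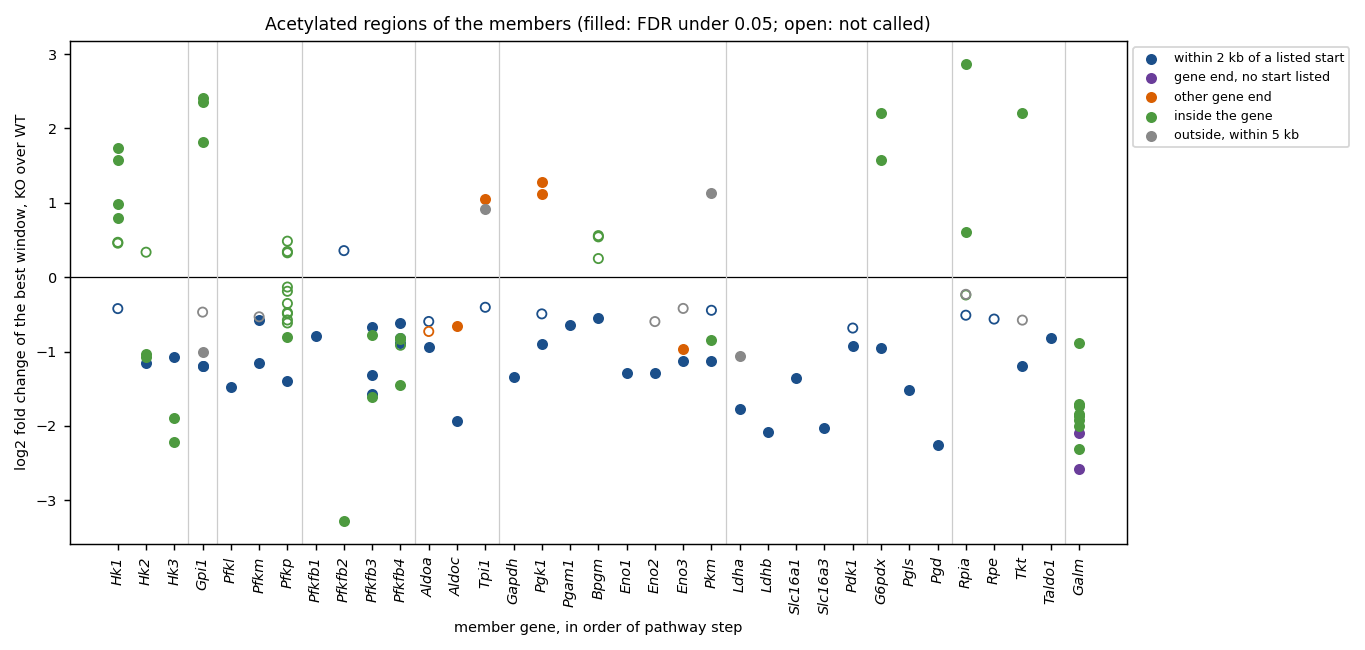
Log2 fold change (KO over WT, best window, from the authors' deposited table) of all 112 regions within 5 kb of a member, 1 point per region, in order of pathway step with grey lines between steps; colours give the position and filled points were called. Blue points at starts lie below 0 except for Pfkfb2, whose region was not called, and every filled point above 0 lies away from a start.

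The regions that rose lay away from the starts. In the authors' deposited table, 35 of 44 member regions within 2 kb of an annotated start fell and 0 rose, against 56% and 5.14% of all such regions. These and the following shares by position are over pairs of region and gene, so a region near several genes counts once for each. Inside the genes, 20 of 50 regions fell and 12 rose (36.4% and 18.6% of all regions inside genes with an annotated start). These 50 include the inner regions of Galm, all of which fell. Galm has no annotated start and genes without one are left out of the 36.4% and 18.6%, so the shares are not on the same footing. At gene ends more than 2 kb from an annotated start 2 of 6 fell and 3 rose (52.6% and 9.75%). Of the 2 that fell, that of Eno3 lies before the gene span, because the annotated start of Eno3 lies inside it. Outside the spans 2 of 10 fell and 2 rose (51.5% and 8.36%). Both gene-end regions of Galm, which has no start in the table used, fell. The 17 regions that rose belong to 8 members, Hk1, Gpi1, Tpi1, Pgk1, Pkm, G6pdx, Rpia and Tkt. They were narrow, with a median width of 450 bp (750 bp over all regions within 5 kb of a gene that rose), and 7 of them held a peak in 3 KO and 0 WT libraries (17% of all regions that rose) and 3 a peak in all 6 libraries (42%). The 61 regions that fell belong to 31 members and had a median width of 1650 bp (1350 bp over all that fell). Of these, 40 held a peak in all 6 libraries (65.3% of all regions that fell) and 10 held one in 3 WT and 0 KO libraries (10.8%). Over 5 kb, 54.5% of member regions fell and 15.2% rose, against 45.9% and 12.1% of all. Galm alone supplied 10 of the 61 regions that fell, and no region of it rose. Only Rpe had no called region, and 5 members had regions called in both directions.

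The length of DNA under peaks gives a value per library. Summed over the members and 5 kb to each side, it was 194539, 185211 and 192860 bp in WT against 134165, 138375 and 139054 bp in KO. The groups did not overlap, and the KO mean of 137198 ± 2649 bp (SD, n = 3) was 71.9% of the WT mean of 190870 ± 4972 bp (SD, n = 3). A two-sided exact permutation test gave p = 0.1, the smallest that 3 against 3 libraries allow. Over all genes the KO sum was 84.6% of WT, and Galm carried much of the members' difference: without it the KO sum was 79.4% of WT. For 23 members every KO library was below every WT library (41.3% of genes with peaks), for 3 it was above (6.18%), and for 9 the groups overlapped. Neighbouring genes within 5 kb contribute to these lengths. A gene-end peak was present at 33 members in each WT library and at 31, 29 and 29 in KO (two-sided exact permutation p = 0.1). Ldha lacks one in every KO library and Pfkfb4 in KO replicates 2 and 3, yet peaks near their annotated starts lie outside this window there. Within 2 kb of an annotated start the counts were 33, 33 and 34 in WT and 32, 31 and 31 in KO. The matching count over all genes was not taken.

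**Figure D2:**
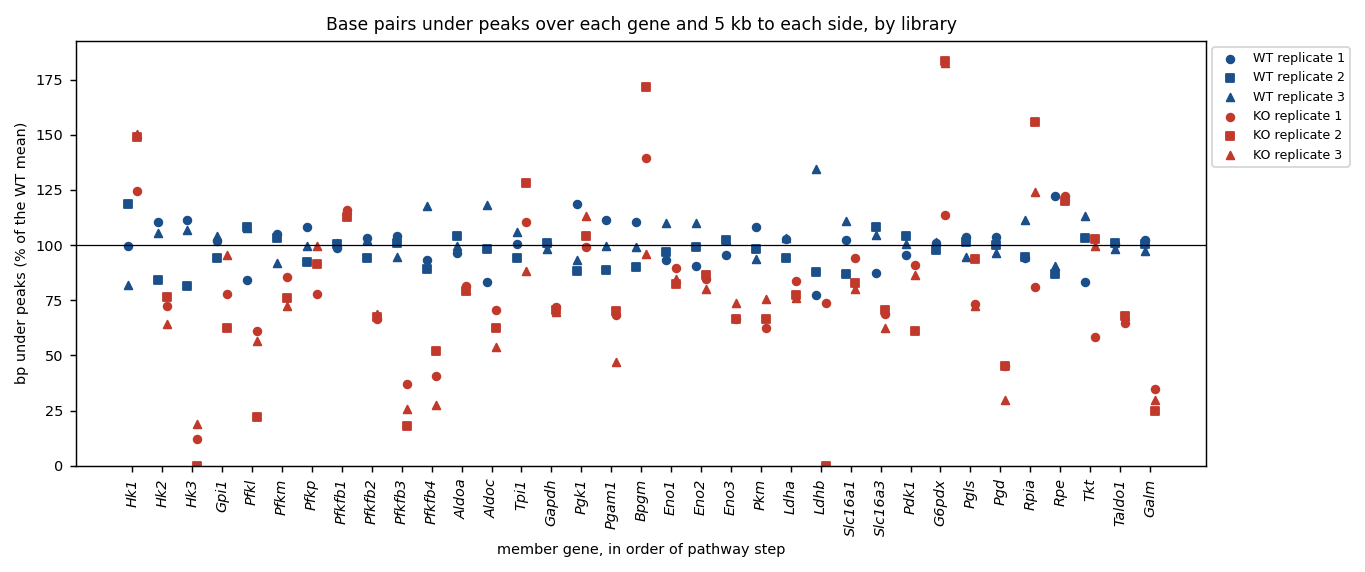
Base pairs under peaks over each member and 5 kb to each side, as percent of the member's WT mean, for 3 WT (blue) and 3 KO (red) libraries, 1 point per library. KO libraries lie lowest at Hk3, Ldhb, Pfkfb3, Galm, Pfkfb4 and Pgd, and lie above all WT libraries at Hk1, Pfkfb1 and G6pdx.

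Relative summit heights were lower in KO cells for some members and higher for others, both in numbers near the shares over all genes. The height of the tallest gene-end peak, in fragments over the mean coverage of its library, was solved in all 6 libraries for 28 members. All KO libraries lay below all WT libraries for 5 of them, Gapdh, Pgam1, Pdk1, Pgd and Galm (17% of 9562 genes), and above for 4, Pfkm, Pfkp, Pgk1 and Bpgm (17.5%). The ratio of KO to WT ran from 0.319 to 1.5 with a median of 0.929, against 1.0 over all genes; these ratios are a description and were not tested. Of 34 gene-end regions that fell, 11 had every window listed as going down in the authors' deposited table (32.4%; 29.6% of all gene-end regions that fell).

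**Figure D3:**
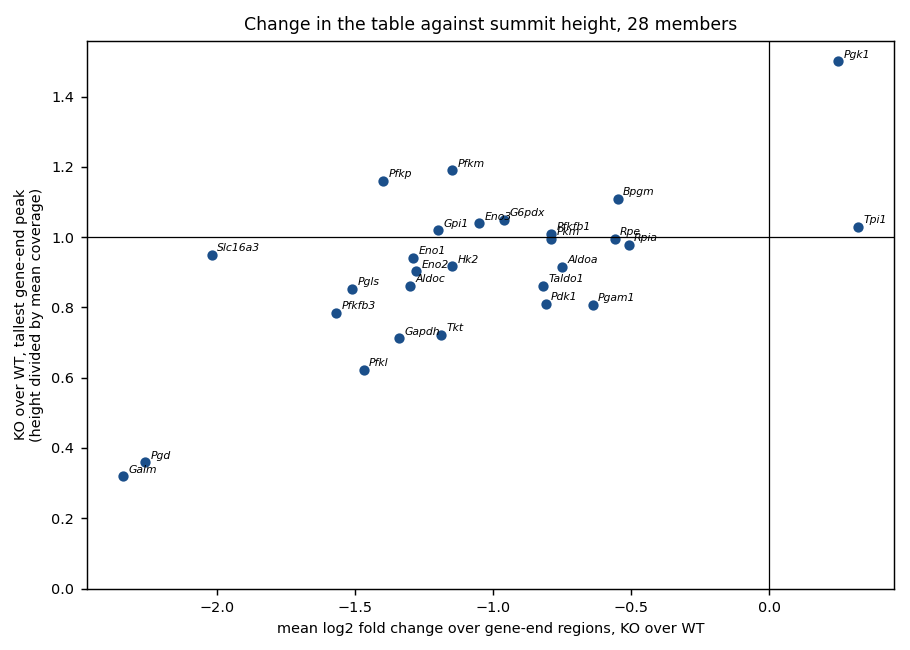
Mean log2 fold change over gene-end regions from the authors' deposited table (x) against the KO over WT ratio of the tallest gene-end peak, each height divided by the mean coverage of its library (y), for the 28 members with a solved height in all 6 libraries. Galm and Pgd lie at the lower left, with ratios of 0.319 and 0.359, while Pfkp and Pfkm had negative log2 fold changes and ratios of 1.16 and 1.19.

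Hexokinases trap glucose as glucose 6-phosphate, and their 3 genes changed in different ways. Hk2, the form induced in activated T cells, had a summit at its start of 70.2, 86.5 and 76.4 times mean coverage in the WT libraries and 76.8, 62.5 and 74.3 in the KO libraries. The heights overlapped, while the start region of Hk2 fell in the authors' deposited table (log2 fold change -1.15, FDR 1.53e-05), with 18 of its 26 windows down. At Hk2, peaks covered 7788, 5962 and 7436 bp in WT and 5106, 5409 and 4525 bp in KO, groups that did not overlap. Hk3, a form typical of myeloid cells, had a gene-end peak in every WT library and in no KO library. At its start region the summits were 20.6, 16.4 and 14.8 times mean coverage in WT. A taller peak inside Hk3, centred 3034 bp from the start, stood at 39.6, 40.8 and 38.7 in WT. In KO replicates 1 and 3 the inner peak was 17.3 and 10.4, and KO replicate 2 had none. All 3 regions of Hk3 fell, and their values in the authors' deposited table were -1.07 at the start and -1.89 and -2.22 inside the gene. Peaks within 5 kb of Hk3 covered 4531, 3313 and 4343 bp in WT and 491, 0 and 776 bp in KO. At Hk1, the constitutive form, the start region was not called (-0.42, FDR 0.375, in the authors' deposited table). Its height was 105.0 and 118.0 times coverage in WT replicates 1 and 3, unsolved in WT replicate 2, and 138.0, 123.0 and 121.0 in KO. Inside Hk1, 4 regions centred 3270 to 16846 bp from the start rose in the authors' deposited table, by 0.80 to 1.74 on the log2 scale. Hk1 is 1 of the 3 members with more DNA under peaks in all KO libraries (6865, 8228 and 8284 bp against 5499, 6532 and 4511 bp).

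Gpi1, glucose 6-phosphate isomerase, fell at its start and rose inside. Both gene-end regions of Gpi1 stood at -1.20 on the log2 scale in the authors' deposited table (FDR 0.000108 and 0.000138). Of their windows, 3 of 10 and 3 of 3 were listed as down. The summit at the start of Gpi1 was 39.1, 44.0 and 44.1 times coverage in WT and 44.4, 40.2 and 45.7 in KO, and these ranges overlapped. Inside the gene, 3 neighbouring regions of Gpi1 centred 19836 to 21336 bp from the start (from chr7:34208701-34209300 to chr7:34210351-34210650) rose by 1.82 to 2.41 in the authors' deposited table. A peak of 39.5, 32.4 and 33.8 times coverage covered 2 of them in the KO libraries, and no WT library had a peak there.

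Phosphofructokinase commits the sugar to glycolysis. The gene-end regions of all 3 genes of the enzyme fell, with values in the authors' deposited table of -1.47 at Pfkl, -1.15 at Pfkm and -1.40 at Pfkp on the log2 scale. In the region of Pfkm 4 of 25 windows were listed as down. Pfkp, the platelet form that many proliferating cells express, carried the widest acetylation of the 3, with 28718, 24536 and 26419 bp under peaks in WT and 20660, 24301 and 26441 bp in KO. These lengths overlapped, and 10 of 12 regions within 5 kb of Pfkp were not called. The summit at the start of Pfkp was 84.5, 83.9 and 86.2 times coverage in WT and 102.0, 91.0 and 102.0 in KO, so all KO libraries lay above, although 9 of 29 windows of the same region were listed as down in the authors' deposited table. At Pfkl, the liver form, all 18 windows were listed as down, and the summit was 41.6, 70.4 and 58.9 times coverage in WT and 53.0, 9.62 and 43.7 in KO; KO replicate 2 lay far below the others.

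The PFKFB genes encode the bifunctional enzymes that make and degrade fructose 2,6-bisphosphate, the strongest activator of phosphofructokinase. Of their 15 regions, 13 fell and 0 rose in the authors' deposited table (45.9% and 12.1% of all regions within 5 kb of a gene). At Pfkfb3, the form with the highest kinase activity, all 5 regions fell in the authors' deposited table, with values of -1.61 to -0.67. In all, the peaks of Pfkfb3 and its flanks summed to 8073, 7825 and 7318 bp in WT and 2875, 1389 and 2008 bp in KO, or 27.0% of the WT mean. Its region at an internal start (log2 fold change -1.32 in the authors' deposited table) had peaks of 29.3, 42.0 and 41.1 times coverage in WT and none in KO. At Pfkfb4, 6 of 7 regions fell in the authors' deposited table, and 5047, 4820 and 6356 bp lay under peaks in WT against 2195, 2811 and 1482 bp in KO. Pfkfb2 held the region with the lowest value of all 112, 13576 bp inside the start (chr1:130700551-130701450; log2 fold change -3.28, FDR 3.19e-25, in the authors' deposited table). The peak there at Pfkfb2 was 23.8, 25.3 and 23.2 times coverage in WT, and no KO library had a peak. The start of Pfkfb2, which it shares with Yod1, was not called (0.36, FDR 0.531, in the authors' deposited table), and its summit was 57.4, 59.8 and 56.2 times coverage in WT against 102.0, 88.8 and 87.3 in KO. The start of X-linked Pfkfb1, within 2 kb of an end of Apex2, fell (log2 fold change -0.79) in the authors' deposited table. Its summit was 31.1, 31.0 and 31.6 times coverage in WT and 31.4, 30.2 and 32.7 in KO, which overlapped, and Pfkfb1 had 1319, 1343 and 1352 bp under peaks in WT against 1550, 1511 and 1548 bp in KO.

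**Figure D4:**
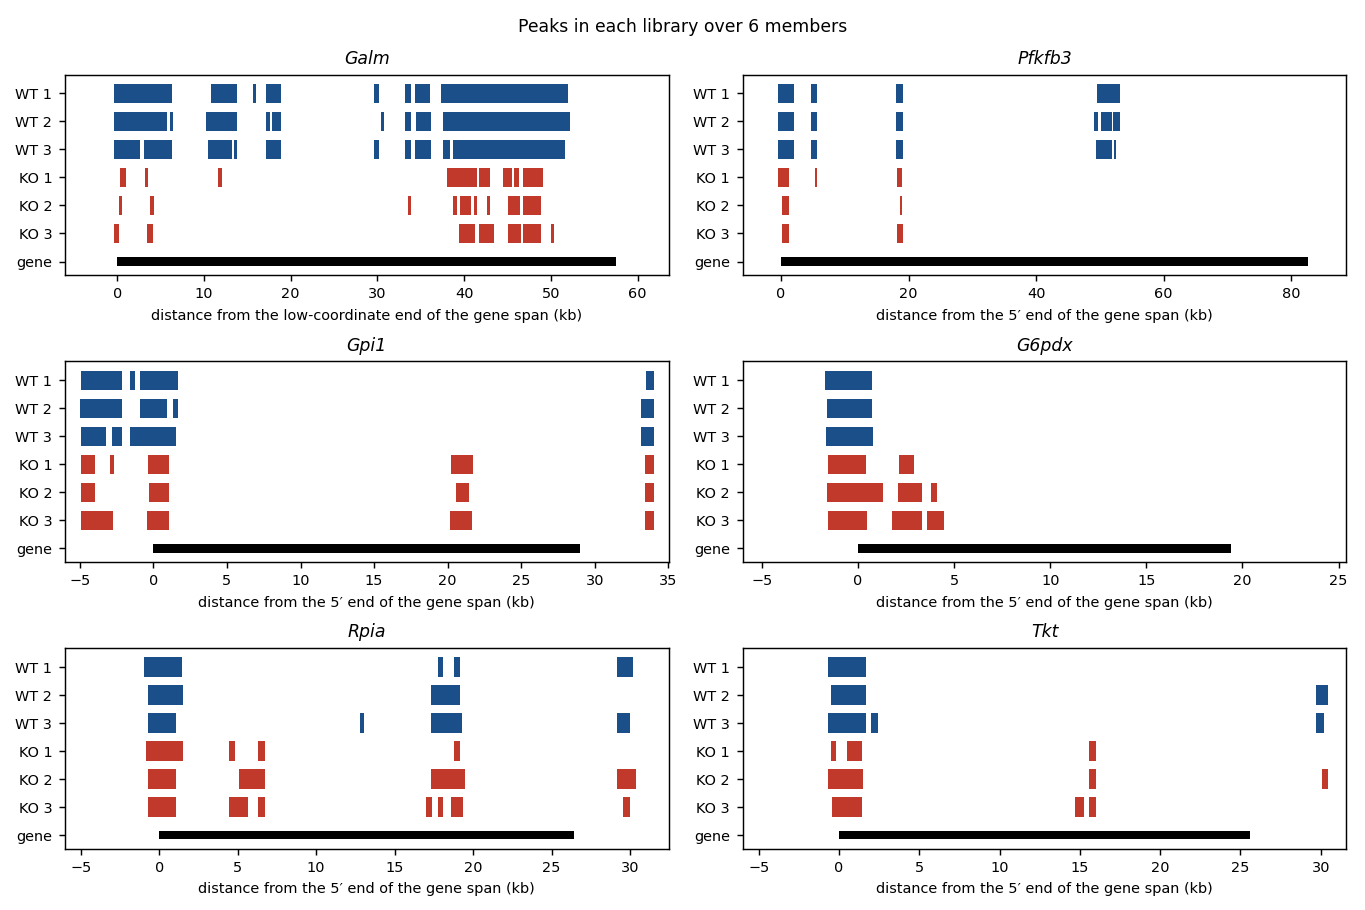
Peaks of each library (WT blue, KO red) over 6 members and 5 kb to each side, by distance in kb from the 5′ end of the gene span, or from its low-coordinate end for Galm; the black bar is the gene. The KO libraries lack most WT peaks of Galm and the inner block of Pfkfb3, and hold peaks inside Gpi1, G6pdx, Rpia and Tkt that no WT library has.

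Aldolase splits the hexose and triose phosphate isomerase interconverts the products. Aldoa, the main aldolase outside liver and brain, had 1 of 3 gene-end regions called (log2 fold change -0.94 in the authors' deposited table). Both regions of Aldoc fell, with values of -1.94 and -0.65 in the authors' deposited table, and only WT replicate 3 had a peak at the first. Tpi1 had the highest mean, 0.32 in the authors' deposited table. Its start was not called there (-0.40, FDR 0.434), and its summit was 51.6, 54.9 and 60.9 times coverage in WT and 60.6, 63.8 and 47.8 in KO. The region at the other end of Tpi1, within 2 kb of an end of Spsb2, rose (chr6:124808551-124809750; 1.05, FDR 4.25e-05, in the authors' deposited table), from 17.6, 13.2 and 16.5 times coverage in WT to 39.5, 31.5 and 36.9 in KO. The 2 groups did not overlap there, and a flanking region of Tpi1 rose as well (0.92 in the authors' deposited table). The length under peaks at Tpi1 was 4061, 3804 and 4281 bp in WT and 4470, 5196 and 3579 bp in KO.

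From glyceraldehyde 3-phosphate to pyruvate, 9 of 13 gene-end regions fell and 2 rose in the authors' deposited table (55.3% and 6.17% of all gene-end regions). The summit at Gapdh was 56.4, 64.4 and 60.9 times coverage in WT and 44.9, 45.0 and 39.5 in KO, a ratio of 0.712 with no overlap. The region of Gapdh, which also reaches ends of Iffo1 and Ncapd2, fell (-1.34, FDR 2.66e-05, in the authors' deposited table). At Gapdh, peaks covered 4434, 4450 and 4336 bp in WT and 3172, 3112 and 3067 bp in KO.

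Pgk1, phosphoglycerate kinase, which makes the first ATP of the pathway, was the only member with gene-end regions called in both directions. The region just before its start fell (-0.89, FDR 0.00515) and the one over it was not called (-0.49, FDR 0.207), both in the authors' deposited table. The tallest peak at the start of Pgk1 was 68.4, 82.2 and 70.7 times coverage in WT and 113.0, 112.0 and 107.0 in KO, the highest ratio among the 28 members with solved gene-end heights (1.5). At the 3′ end of Pgk1, 2 short regions (chrX:106202851-106203300 and chrX:106203601-106204200) rose in the authors' deposited table (1.12 and 1.28); all 3 windows of the first were listed as up, but only 1 of 4 of the second, with 1 down. The first had peaks of 10.8, 19.7 and 9.87 times coverage in the KO libraries and the second of 14.1, 19.7 and 18.2, and neither had a WT peak. Peaks within 5 kb of Pgk1 covered 5364, 3999 and 4211 bp in WT and 4477, 4710 and 5118 bp in KO.

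The start of Pgam1, phosphoglycerate mutase, fell (-0.64) in the authors' deposited table, and its summit ratio was 0.808 without overlap. Bpgm, which makes 2,3-bisphosphoglycerate, had a called but small change at its start (-0.55, FDR 0.0367, in the authors' deposited table). The summit of Bpgm was nonetheless higher in all KO libraries, at 75.7, 84.8 and 81.8 times coverage in WT and 88.2, 92.7 and 88.9 in KO. In all, the peaks of Bpgm and its flanks summed to 2710, 2203 and 2433 bp in WT and 3414, 4204 and 2346 bp in KO, which overlapped. The enolases convert 2-phosphoglycerate, and the start regions of Eno1, Eno2 and Eno3 fell, with values of -1.29, -1.28 and -1.13 in the authors' deposited table. Those of Eno2 and Eno3 lie within 2 kb of ends of other genes, Lrrc23 for Eno2 and Pfn1 and Rnf167 for Eno3. In the start region of Eno2 3 of 12 windows were listed as down. Pkm, pyruvate kinase, had 1 of 2 start regions called (-1.13, FDR 3.43e-06, in the authors' deposited table). The summit at the start of Pkm was 53.4, 78.5 and 68.0 times coverage in WT and 80.6, 61.7 and 56.6 in KO, which overlapped, while its length under peaks was 6344, 5768 and 5503 bp against 3669, 3895 and 4433 bp. A region 3150 bp before the start of Pkm rose (1.13 in the authors' deposited table), with peaks of 17.9 and 17.5 times coverage in KO replicates 1 and 2 and none elsewhere.

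For lactate and pyruvate handling the authors' deposited table called 6 of 7 regions within 5 kb lower and 0 higher (45.9% and 12.1% of all). Ldha, which makes lactate, had 3450 bp of acetylation over its start with all 23 windows down (chr7:46844251-46847700; log2 fold change -1.77, FDR 4.25e-17, in the authors' deposited table). Its summit was 60.7, 94.0 and 97.0 times coverage in WT and 80.6, 65.6 and 73.3 in KO, so the summits overlapped even though every window of Ldha was listed as down. The length under peaks at Ldha was 6162, 5641 and 6206 bp in WT and 5029, 4654 and 4553 bp in KO. The annotated start of Ldha lies inside its span, so the narrower KO peaks end outside the 2 kb window around the span's end although they cover the start. Ldhb, the form that favours lactate use, had the third lowest mean (chr6:142507651-142508700; -2.08, FDR 6.13e-15, in the authors' deposited table), with all 7 windows down. Its peak was 20.8, 23.9 and 26.6 times coverage in WT and 13.5 in KO replicate 1, with no peak in KO replicates 2 and 3. At Ldhb, peaks covered 826, 938 and 1437 bp in WT and 785, 0 and 0 bp in KO.

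Of the lactate transporters, Slc16a3 (MCT4, an exporter of highly glycolytic cells) had a log2 fold change of -2.02 and Slc16a1 (MCT1) one of -1.36, both called in the authors' deposited table. In the region of Slc16a1 9 of 28 windows were listed as down. At Slc16a3 the summit was 19.3, 29.9 and 21.5 times coverage in WT and 26.5, 21.4 and 19.2 in KO, which overlapped, whereas 16 of 21 windows of the region were listed as down in the authors' deposited table. Peaks within 5 kb of Slc16a3 covered 2778, 3441 and 3323 bp in WT and 2190, 2241 and 1980 bp in KO, groups that did not overlap. Pdk1, which inhibits pyruvate dehydrogenase, had 1 of 2 start regions called (-0.93 in the authors' deposited table), and its summit was lower in all KO libraries (ratio 0.811).

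In the pentose phosphate pathway, 5 of 7 gene-end regions fell and 0 rose in the authors' deposited table (55.3% and 6.17% of all). Over 5 kb, 5 of 15 fell there, a smaller share than the 45.9% of all regions, and 5 rose (12.1% of all). The 3 genes of the oxidative branch, which makes NADPH, all fell at their starts in the authors' deposited table. Pgd, 6-phosphogluconate dehydrogenase, had the second lowest mean (chr4:149165701-149167800; -2.26, FDR 7.5e-23, in the authors' deposited table), with all 14 windows down. Its summit was 54.2, 77.0 and 66.0 times coverage in WT and 22.7, 24.1 and 23.9 in KO, far apart, with a ratio of 0.359. In all, the peaks of Pgd and its flanks summed to 2107, 2032 and 1967 bp in WT and 923, 923 and 608 bp in KO. Pgls, the lactonase between the 2 dehydrogenases, fell (-1.51) in the authors' deposited table. G6pdx, the rate-limiting first enzyme, fell at its start (-0.96, FDR 0.00181) and rose at 2 regions inside the gene (2.21 and 1.58), all in the authors' deposited table. In the start region of G6pdx 4 of 16 windows were listed as down. At the start of G6pdx the summits of 51.9, 68.1 and 62.6 times coverage in WT and 55.7, 63.4 and 71.7 in KO overlapped. The inner regions of G6pdx, centred 2930 and 3904 bp from the start, had no WT peak, and the nearer one had peaks of 12.4, 15.7 and 12.5 times coverage in the KO libraries. The length under peaks at G6pdx was 2438, 2361 and 2459 bp in WT and 2751, 4438 and 4414 bp in KO.

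The non-oxidative branch shuffles sugar phosphates between the pathways. Tkt and Taldo1, transketolase and transaldolase, fell at their starts (-1.19 and -0.82) in the authors' deposited table, and the starts of Rpia and Rpe, the pentose phosphate isomerase and epimerase, were not called (-0.51 and -0.56 there). At Rpia the summit was 69.7, 73.3 and 59.9 times coverage in WT and 63.3, 77.4 and 57.7 in KO, which overlapped. Inside Rpia, 6500 bp from the start, lay the region with the highest value of all 112 (chr6:70785451-70785900; 2.87, FDR 6.03e-15, in the authors' deposited table). Its peaks were 21.6, 18.8 and 20.3 times coverage in the KO libraries, and no WT library had one. At Rpia, peaks covered 4116, 4123 and 4856 bp in WT and 3532, 6809 and 5419 bp in KO. A region inside Tkt, 15694 bp from the start (chr14:30564601-30565050), rose by 2.21 in the authors' deposited table, with peaks of 12.4, 11.8 and 19.2 times coverage in KO and none in WT.

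Galm, galactose mutarotase, which interconverts the anomers of galactose and glucose, had the lowest mean (gene span chr17:80127458-80185032; -2.34 in the authors' deposited table). All 10 of its regions fell there, with values of -2.58 to -0.89, and all 163 windows were listed as down. The gene had 29398, 28802 and 27954 bp under peaks in WT, more than any other member in every WT library, and 9947, 7105 and 8520 bp in KO (29.7% of the WT mean). Within 2 kb of the end of the Galm span the tallest peak was 46.9, 53.5 and 37.0 times coverage in WT and 16.8, 16.6 and 10.4 in KO. Over the whole of the wider gene-end region of Galm it was 46.9, 53.5 and 48.5 in WT and 17.3, 16.2 and 13.5 in KO. In the largest inner region of Galm it was 96.0, 103.0 and 97.0 in WT and 42.2, 53.8 and 41.6 in KO. In each WT library 1 peak spans this region and a neighbouring one of 6150 bp, so the WT summit may lie outside the named region. The tallest KO peaks of that neighbouring region were 35.2, 36.7 and 40.5 times coverage. None of these sets overlapped, and 3 regions inside Galm (log2 fold changes -1.84, -2.00 and -1.70 in the authors' deposited table) had peaks in all WT libraries and in no KO library.

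Among 38 related genes of sugar metabolism that are not members, such as Slc2a1, the pyruvate carriers and the pyruvate dehydrogenase subunits, 27 had gene-end regions. Of their 32 regions 24 fell and 1 rose in the authors' deposited table (55.3% and 6.17% of all gene-end regions), and the median of their means was -0.87, against -0.75 over all genes. The region that rose belongs to H6pd, the dehydrogenase of the endoplasmic reticulum, whose other gene-end region fell.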

How the data were processed

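H3K9/14ac ChIP libraries (3 WT, 3 KO) were analysed from the authors' deposited files. Per the submitters' processing notes the tools included MACS2 2.2.6, Bowtie2 2.3.5.1 and cutadapt 2.8, with deepTools 3.3.2 and bcl2fastq 2.20.0.422; GRCm38 and mm10 are the builds named. Peaks were called per library; each deposited list holds, per peak, the authors' score, fold (a ratio over background) and -log10 of p and q (lowest 3.0). Lists called on paired-end fragments were used, and those called on single reads served as an alternative. The authors' deposited table describes each region, built of 150 bp windows, by its best window's log2 fold change, its p-value and FDR, and the counts of its windows that went up or down. Lacking values by library, it allowed neither a refit nor the removal of a library. Its program and scaling: not given in the sources used here. For significant regions the deposited score restates the FDR on a negative log10 scale.

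The table has no coordinates beyond the best window. Spans of 24128 regions came from the list of significant regions, 16571 were rebuilt from windows under single-read peaks (98.8% of listed spans were rebuilt exactly), 208 were placed by the best window, and 2 were not located. Every member region was of the first 2 kinds. Gene spans are RefSeq's, GRCm38.p6, without exons. In MACS2 the fold is (height + 1) / (background + 1) and p a Poisson tail, so summit heights in fragments were solved for 97.8% to 99.4% of peaks per library, within 0.01 of the deposited -log10 p. Tested on simulated peaks the solution returned the heights put in. WT replicates 1 and 2 carry a scaling of 0.89 and 0.922, which was undone. As mean coverage the lowest background that 50 or more peaks share was taken. Heights are not corrected for counting error, and neighbouring regions under 1 peak share its height. Against log2 ratios of these heights over 1278 regions, the table's values gave r = 0.993 across regions, which are not independent replicates, and an offset of 0.49, where the log2 coverage ratio is -0.78; the difference, 0.30, is the move to mean coverage scaling. The sign was checked on 2730 regions with peaks in WT libraries alone, of which 99.9% were negative.

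Tests on library sums were exact permutation tests, two-sided. Tools were Python 3.11.15, numpy 2.4.6, pandas 2.3.3, scipy 1.17.1 and matplotlib 3.10.9. The members and gene lists were chosen with earlier results of these data known. Values by library are given for the 4 lowest and 4 highest members by mean over gene-end regions, members with gene-end regions called in both directions, members with gene-end peaks in every library of 1 genotype and none of the other, and Hk2, Gapdh, Pkm, Ldha, Ldhb, Pgk1, Tpi1, Pfkp, Slc16a3 and G6pdx; values for other members were added after they were seen.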

Additional observations from a re-analysis of the deposited data

How the results depend on the processing

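With regions within 5 kb of the span in place of gene-end regions, 61 regions fell and 17 rose, and the median of the members' means was -0.82. The means of Gpi1 (0.39), Bpgm (0.20), G6pdx (0.94), Rpia (0.50) and Tkt (0.14) then turned positive, since regions inside these genes entered them, and weighting by region width turned Pgk1 to -0.25. The following alternatives were chosen after seeing the data. At mean coverage scaling (median -0.85) and a log2 size limit of 1, 13 gene-end regions fell. Without the X-linked members 1 rose, and within 2 kb of an annotated start 35 fell and 0 rose. The other alternatives for these counts and for the median kept their direction, with 23 to 34 regions lower. The 34 is the count at mean coverage scaling without a size limit. That scaling kept the deposited FDR and moved no called region across 0, so it could not change the counts and is no check on them. No share over all gene-end regions was taken at a size limit, so counts there cannot be set beside the 55.3% called at the FDR alone. The number of members with a gene-end peak was 33 in each WT library and 31, 29 and 29 in KO (difference -3.33, exact permutation p = 0.1), but within 2 kb of an annotated start it was 33, 33 and 34 against 32, 31 and 31 (difference -2.0, exact p = 0.1). Leaving out 1 library at a time gave 70.8% to 72.7% for the length under peaks, -4.0 to -3.0 for the number of members and 0.87 to 0.967 for the median height ratio. Single-read peaks, a -log10 q of at least 5 and equal numbers of peaks gave 69.3% to 72.6%. Correlations of deviations between WT and KO replicates were -0.02 to 0.01. With 3 libraries per genotype they cannot exclude that replicate numbers pair the samples, and the labels do not say. With the replicate block the values stayed at 71.9% and -3.33 (exact sign-flip p = 0.25, the smallest 3 pairs allow). The shallower KO libraries limit the detection of low peaks, so a missing KO peak means that none was called at this depth.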
